A study of Mus musculus with 10 samples.

Results

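The antigen receptor loci measured here are the 5 mouse loci for the immunoglobulin heavy chain (Igh), the immunoglobulin light chains kappa (Igk) and lambda (Igl), the T-cell receptor alpha and delta chains (Tcra/Tcrd) and the T-cell receptor gamma chain (Tcrg). Their members are the array probes whose start lies in 1 interval per locus on the mm9 build, and 491 of the 161460 autosomal probes qualified (170305 probes in all). The intervals were set by position and not by the measured values, but the loci were chosen with results of these arrays known. Igh was covered by 179 probes (chr12:114403600-117293605), Igk by 155 (chr6:67408442-70798297), Igl by 19 (chr16:19021327-19289417), Tcra/Tcrd by 115 (chr14:52803281-54895340) and Tcrg by 23 (chr13:19206659-19496510). The files tie no gene to a probe, so a locus name rests on its interval, and whether a probe lies in an exon, an intron or between genes was not analysed here.

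An antigen receptor locus is a tandem array of related variable (V) and joining (J) segments with constant (C) genes, and the Igh locus and the delta part of Tcra/Tcrd also hold diversity (D) segments. Developing B and T lymphocytes cut and join 1 segment of each kind, with the RAG recombinase, to make an immunoglobulin or T-cell receptor gene, while other cells, such as hepatocytes, keep the germline arrangement. The arrays arose by repeated duplication, and inbred mouse strains are known to differ in the segments they carry. RefSeq's table for the later GRCm38.p6 build, used for names and order only, lists 215 segments and constant genes at Igh, of which 120 are V segments and 63 V pseudogenes. In that table the Igh constant genes stand at the low-coordinate end, from Igha and the V segments reach the high end. It lists 168 entries at Igk (102 V segments), 202 at Tcra/Tcrd (119 V and 53 J segments), 15 at Tcrg and 12 at Igl. Igk runs from Igkv2-137 to Igkc, the kappa constant gene, and Tcra/Tcrd from Trav1 to Trac, the alpha constant gene.

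The study asked whether mice derived from long-frozen germ cells carry changes in their genome. Liver DNA of each animal (Cy5) was hybridised on a 2-colour oligonucleotide array against 1 pooled reference (Cy3), which held equal amounts of DNA from adult C57BL/6, SJL and DBA mice. The 5 ICSI-derived animals came from testis cells of ZFLacZ transgenic mice frozen for 14 years, with sperm injected into oocytes (intracytoplasmic sperm injection) of a DBA x C57BL/6 cross. The 5 naturally born animals were ZFLacZ progeny, labelled wild type, and served as controls. Each group had 3 males (replicates 1 to 3) and 2 females (replicates 4 and 5). The ZFLacZ line itself was made on an SJL x C57BL/6 background. The labels give the DBA x C57BL/6 oocytes for the ICSI-derived animals only, so origin from frozen cells and the mothers' strain cannot be told apart. The labels name adult mice for the naturally born group and give no age in weeks, no litter and no shared parent.

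On each array 173864 to 174090 of 174305 spots were well above background. The number of arrays, 5 per group, limits how precisely a group mean is known. Naturally born replicate 2 and ICSI-derived replicates 1 and 4 were the noisiest, with a spread of 0.17, 0.20 and 0.21 between neighbouring probes against 0.14 to 0.15 on the other arrays. Naturally born replicate 3, labelled male, stood apart on the sex chromosomes. Its mean log2 ratio was -0.03 on X and -0.01 on Y, between the other males (-0.61 to -0.55 and 0.75 to 0.82) and the females (0.26 to 0.28 and -1.57 to -1.42). The test counts, the count of wide Igh probes and the order of the animals in Igh windows are given with and without it. Most other results include it. The arrays lay on 3 slides, of which slide 1 held replicates 1 and 2 of both groups, slide 2 replicates 3 and 4, and slide 3 replicates 5.

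Every value below is a log2 ratio of the animal to the pool, centred on the array's autosomal median, so 0 is the pool's copy level and a negative value less DNA than in the pool. A ratio can also shift where an animal's sequence matches a probe less well than the pool's, and the array does not separate this from copy number.

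No member passed the test for a difference between the ICSI-derived and the naturally born animals. With limma's moderated test on group and sex over all autosomal probes (two-sided, Benjamini-Hochberg adjusted), 0 of 491 member probes were called higher and 0 lower, where 0.0155% and 0.00434% of all autosomal probes were called. Windows of 5 consecutive probes gave the same count, 0 of 99 in either direction, against 0.0186% and 0.0062% of all windows. At an unadjusted p under 0.05 there were 35 member probes (7.13%, against 3.27% of all autosomal probes) and 8 member windows (8.08%, against 2.94%). Without naturally born replicate 3 the member counts were again 0, with 43 probes and 9 windows under the unadjusted threshold, where 3.1% of all autosomal probes and 2.79% of all windows were.

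The probes under the unadjusted threshold were unevenly spread over the loci. Tcra/Tcrd held 22 of its 115 probes (19.1%), 13 of them higher in the ICSI-derived animals, and Igh held 9 of 179 (5.03%), all lower. Igk held 4 of 155, and Igl and Tcrg held 0. The smallest adjusted p from limma was 0.35 at Tcra/Tcrd and 0.47 at Igh. The median difference over the probes of a locus lay between -0.02 (Tcrg) and 0.03 (Igh), beside -0.00038 over all autosomal probes.

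In 6 member probes the groups did not overlap. The ICSI-derived animals were all higher in 2 of the 491 member probes, while this held for 0.264% of all autosomal probes. They were all lower in 4 of the 491, while this held for 0.246% of all autosomal probes. Of the 6, 4 lay in Tcra/Tcrd, 1 in Igh and 1 in Igk. The Tcra/Tcrd probe chr14:54369708-54369763 had 0.21, 0.12, 0.21, 0.22 and 0.15 in ICSI-derived replicates 1 to 5 and 0.39, 0.42, 0.46, 0.52 and 0.45 in naturally born replicates 1 to 5. The gap between the groups there was wider than the spread within either, and the difference of -0.27 (SE 0.05, adjusted p = 0.35 by limma) did not pass. The Igh probe chr12:115388019-115388078 had -0.38, -0.39, -0.26, -0.06 and -0.13 in the ICSI-derived animals and 0.22, 0.28, 0.20, -0.06 and 0.26 in the naturally born. Naturally born replicate 4 was level there with ICSI-derived replicate 4, and the other naturally born animals were all above 0. The difference was -0.42 (SE 0.08, adjusted p = 0.47 by limma). Both probes are named because their groups did not overlap and their adjusted p was the smallest, a choice made after their values were seen.

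Among the 99 member windows, 1 in Tcra/Tcrd (chr14:54541397-54584492) was higher in every ICSI-derived than in every naturally born animal, against 0.226% of all windows. None was lower in all, against 0.189% of all windows. The Tcra/Tcrd window had 0.05, 0.04, 0.08, -0.04 and 0.06 in the ICSI-derived animals and -0.05, -0.10, -0.05, -0.10 and -0.06 in the naturally born. ICSI-derived replicate 4 and naturally born replicate 1 lay next to each other, and the difference of 0.11 (SE 0.03) did not pass limma's test.

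Averaged over a whole locus, the groups differed by less than the larger of their SDs at all 5 loci. The mean over the Igh probes was -0.0052 ± 0.08 (SD, n = 5) in the ICSI-derived and -0.02 ± 0.06 (SD, n = 5) in the naturally born animals. At Igk the means were 0.01 ± 0.0086 and 0.02 ± 0.04, and at Igl they were 0.01 ± 0.02 and -0.01 ± 0.02. At Tcra/Tcrd they were 0.08 ± 0.03 and 0.06 ± 0.01, and all 10 animals were above 0 (0.04 to 0.12). At Tcrg they were 0.05 ± 0.02 and 0.06 ± 0.03, again with all animals above 0. The locus means carry no test, because the loci were chosen with results of these arrays known. For comparison, the T-cell receptor beta locus (63 probes), the remaining antigen receptor locus, had means of 0.17 ± 0.0092 in the ICSI-derived and -0.02 ± 0.04 in the naturally born animals, with no overlap.

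**Figure D1:**
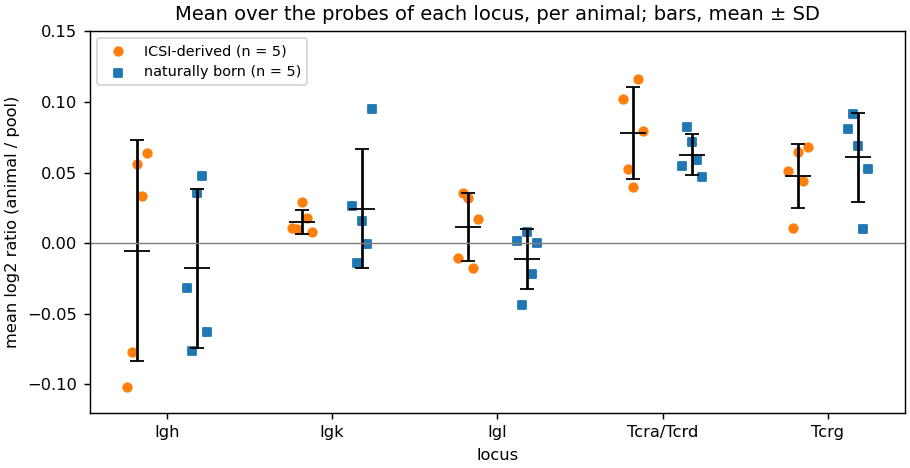
Mean log2 ratio to the reference pool (vertical axis) over all probes of each locus (horizontal axis), 1 point per animal, with the group mean ± SD (n = 5) in black. The groups overlap at every locus, the Igh values spread from -0.10 to 0.06, and naturally born replicate 5 is the single high value at Igk (0.09).

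Igh was the one of the 5 loci with the largest median span between animals, and the animals differed within both groups. The span of a probe, its highest minus its lowest animal, had a median of 0.56 over the Igh probes and of 0.33 over all autosomal probes. It was 1 or more at 32 of 179 Igh probes (17.9%, against 1.13% of all autosomal probes), and without naturally born replicate 3 it was again 1 or more at 32, where 1.1% of all autosomal probes reached it. The T-cell receptor beta locus, for comparison, had 10 such probes of 63 (15.9%). At the other 4 loci there were 4 of 155 in Igk, 3 of 115 in Tcra/Tcrd, 1 of 23 in Tcrg and 0 of 19 in Igl. Together the members had 40 such probes of 491 (8.15%). Within 500 kb on either side of Igh, 0 of 45 and 0 of 45 probes reached a span of 1, with medians of 0.32 and 0.34.

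**Figure D2:**
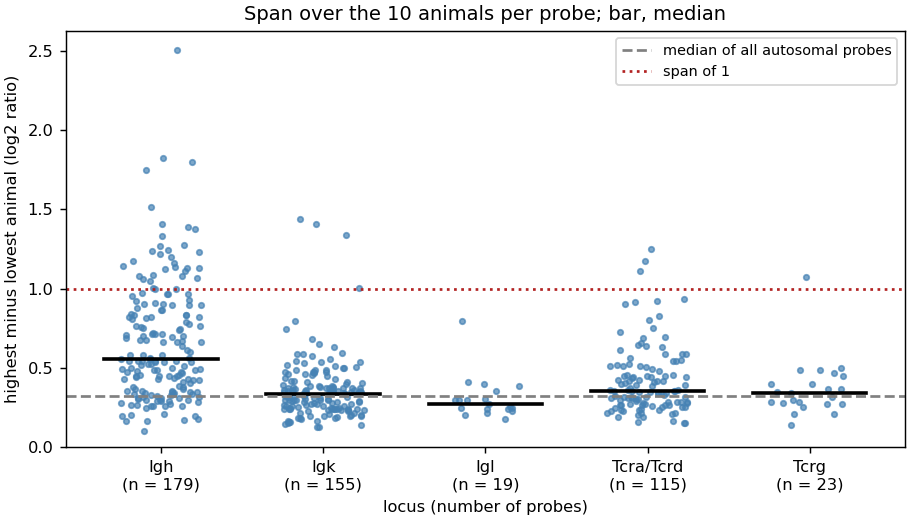
Span of each member probe over the 10 animals (vertical axis, highest minus lowest log2 ratio) by locus (horizontal axis), 1 point per probe, with the locus median as a black bar, the autosomal median as a dashed line and a span of 1 as a dotted line. The Igh probes reach 2.50 and their median of 0.56 lies above the autosomal 0.33, while the medians of the other loci lie between 0.27 and 0.36.

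The spread at Igh lay in the animals' channel. At the 32 Igh probes with a span of 1 or more, the Cy5 signal, centred in the same way, had a median span of 1.15 and the Cy3 signal of the common pool one of 0.27. Over all autosomal probes these medians were 0.30 and 0.23. Among the 32 probes, 2 were not well above background on every array.

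The variable stretches of Igh began a short way in from the low-coordinate end. The first 9 windows, up to position 114886876, spanned at most 0.33 each, and this cut was placed after the spans were seen. Of the other 27 windows 8 spanned 0.5 or more, that is 22.2% of all 36 Igh windows against 0.808% of all autosomal windows, and no window of the other 4 loci did so. Split into 5 parts of equal length from the low to the high end, the Igh interval held 4 of 50, 10 of 46, 6 of 41, 5 of 19 and 7 of 23 probes with a span of 1 or more per part. The RefSeq order puts the constant genes at the low end, but the point at which V segments begin was not placed on mm9 here. The probes were also unevenly spaced, with a gap of 193.6 kb (116304721 to 116498279) and a median gap of 10.4 kb.

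**Figure D3:**
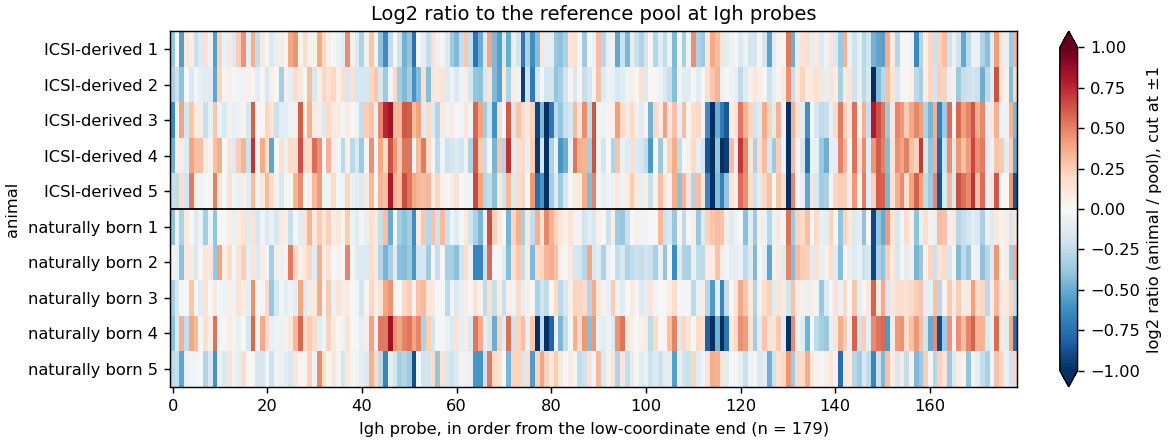
Log2 ratio to the reference pool at the 179 Igh probes (horizontal axis, in order from the low-coordinate end) in each animal (vertical axis, replicate numbers), in colour, with red above and blue below 0 and the scale cut at 1 in either direction. Naturally born replicate 4 and ICSI-derived replicates 3, 4 and 5 have much the same profile (r of 0.86 to 0.94). The other animals but naturally born replicate 3 resemble one another less closely (r of 0.60 to 0.77). They run against the 4 in part of the locus (r of -0.57 to -0.19). Naturally born replicate 3 is paler than both sets.

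The widest Igh window was chr12:115719557-115768558. It had 0.16, 0.14, -0.92, -1.11 and -0.81 in ICSI-derived replicates 1 to 5 and 0.23, 0.10, -0.36, -1.03 and 0.18 in naturally born replicates 1 to 5. Naturally born replicate 4 and ICSI-derived replicates 3, 4 and 5 were thus far below 0, 5 animals were slightly above 0, and naturally born replicate 3 lay in between. The groups overlapped, with a difference of -0.33 (SE 0.23) that did not pass limma's test. Its probe chr12:115738802-115738861 had the widest span of all members, 2.50. It had 0.38, 0.27, -1.93, -2.13 and -1.92 in the ICSI-derived animals and 0.27, 0.07, -0.57, -1.92 and 0.37 in the naturally born.

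The same 4 animals were the high ones elsewhere in Igh. Over the window chr12:114971220-115016613 the values were -0.37, -0.43, 0.46, 0.32 and 0.44 in the ICSI-derived animals and -0.33, -0.40, 0.15, 0.46 and -0.37 in the naturally born. Near the high end, the window chr12:117123247-117198223 had -0.22, -0.27, 0.37, 0.39 and 0.39 in the ICSI-derived and -0.17, -0.23, 0.12, 0.32 and -0.22 in the naturally born animals. Both windows put naturally born replicate 4 and ICSI-derived replicates 3, 4 and 5 above 0.3, naturally born replicate 3 at 0.12 to 0.15 and the rest below -0.1. The probe chr12:116271371-116271430, with the second widest span (1.83), had -0.47, -1.03, 0.80, 0.44 and 0.23 in the ICSI-derived animals and -0.91, -0.91, 0.59, 0.47 and -0.65 in the naturally born. It was not well above background in ICSI-derived replicate 2.

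In 17 of the 36 Igh windows (47.2%) these 4 animals were all above (12 windows) or all below (5 windows) the other 6. The same held in 0.424% of all autosomal windows and in 13 of the 1393 windows on chromosome 12 outside Igh (0.933%). It held in 0 windows of Igk, Igl, Tcra/Tcrd and Tcrg. Naturally born replicate 3 lay next to the 4 animals in 13 of the 17 windows. Without it, the 4 were apart from the remaining 5 in 21 Igh windows (58.3%, against 0.787% of all autosomal windows). The 4 animals were picked from these values, so the counts describe the order and carry no test.

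Naturally born replicate 3 ranked 5 or 6 among the 10 animals at 27 of the 32 Igh probes with a span of 1 or more. The other animals did so at 0 to 10 of them. Its sex chromosome ratios were likewise between those of the other males and the females, and the part of this in its Igh values was not tested.

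Correlations over the 179 Igh probes follow the same lines, as a description: the probes are neighbours on 1 array and share the pool. Pearson's r was 0.86 to 0.94 in the 6 pairs among the 4 animals. It was 0.60 to 0.77 in the 10 pairs among ICSI-derived replicates 1 and 2 and naturally born replicates 1, 2 and 5, and -0.57 to -0.19 in the 20 pairs across. Naturally born replicate 3 had r of 0.71 to 0.76 with each of the 4 and -0.23 to -0.10 with each of the 5, so in direction its profile went with the 4, at values nearer 0. The lowest r over all 45 pairs was 0.42 at Igk, 0.54 at Tcra/Tcrd, -0.02 at Tcrg and -0.33 at Igl, where only 19 probes enter.

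The slides ran partly with this order. All 4 animals on slide 1 were among the 5 that correlated with one another, and slide 2 held 3 of the other 4 animals and naturally born replicate 3. On slide 3 the animals fell on opposite sides, ICSI-derived replicate 5 with the 4 and naturally born replicate 5 with the 5. The part of the slide was not tested further. Sex also ran partly with it, by the labels: 3 of the 4 animals were female and 1 male, and of the 5 animals 1 was female and 4 male. The part of sex was not tested.

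The pattern of the 4 animals was not the whole of the Igh variation. The window chr12:115298666-115345219 was low in ICSI-derived replicates 1 and 2 alone (-0.45 and -0.41), while the other 8 animals lay between -0.09 and 0.05. The neighbouring window chr12:115359454-115396908 had -0.17, -0.23, -0.58, -0.44 and -0.52 in the ICSI-derived animals and 0.26, 0.25, -0.10, -0.58 and 0.22 in the naturally born. Here ICSI-derived replicates 1 and 2 lay below 0 and naturally born replicates 1, 2 and 5 above it, although these 5 went together over most of the locus. ICSI-derived replicates 1 and 2 were both below the other 8 in 2 Igh windows of 36 (5.56%, against 2.40% of all windows in which they were both above or both below). In the neighbouring window the groups differed by -0.40 in the comparison of all animals and did not pass. Among the 4 animals of slide 1 alone the difference was -0.45 (SE 0.06, adjusted p = 0.035 by limma), where 0.0062% of all windows were called lower.

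A segmentation of each array, which joins neighbouring probes of a like level into stretches of at least 5 probes and calls those with a mean of at least 0.25 above or below 0, put 2.59% of member probes in a called stretch on average over the animals, against 0.201% of all autosomal probes. For Igh the share was 5.47% and for Tcra/Tcrd 2.52%, and at Igk, Igl and Tcrg it was 0. Of 272 called stretches in all, 12 touched Igh and 4 Tcra/Tcrd. With a penalty on breakpoints of 6 in place of 3, the share over the members was 0.183%, all from 1 animal, ICSI-derived replicate 3, against 0.131% of all autosomal probes. The stretches are therefore given as levels in every animal and not as counts of called animals.

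The Igh stretches repeated the order of the windows. Over 9 probes at chr12:114929341-115016613 the mean was -0.35, -0.28, 0.52, 0.36 and 0.44 in the ICSI-derived animals and -0.23, -0.35, 0.19, 0.52 and -0.34 in the naturally born. A longer stretch with the same start, chr12:114929341-115044270 with 11 probes, was called in ICSI-derived replicate 5 (0.42). The longest, chr12:114929341-115163572 with 23 probes, was called in naturally born replicate 2 (-0.29), where ICSI-derived replicate 1 had -0.25 and naturally born replicate 5 had -0.24. Over 7 probes at chr12:115345160-115404740 the 4 animals lay at -0.59 to -0.51, ICSI-derived replicates 1 and 2 at -0.23 and -0.21, naturally born replicate 3 at -0.14, and naturally born replicates 1, 2 and 5 at 0.24, 0.21 and 0.18. Over 6 probes at chr12:117085890-117184534 the 4 animals lay at 0.42 to 0.54, naturally born replicate 3 at 0.20 and the other 5 between -0.28 and -0.11.

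**Figure D4:**
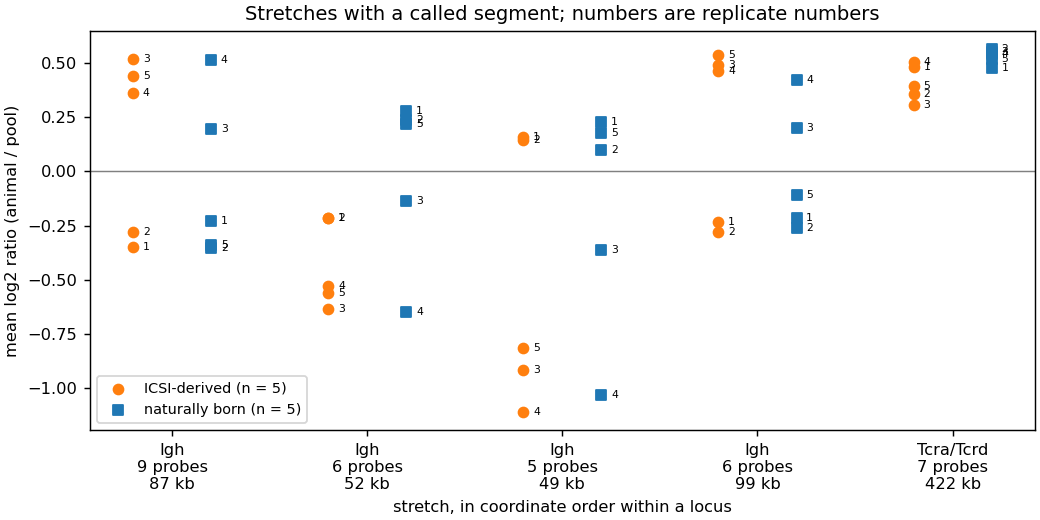
Mean log2 ratio (vertical axis) of each animal over 4 Igh stretches and 1 Tcra/Tcrd stretch with a called segment (horizontal axis, with their probes and length), orange circles for ICSI-derived and blue squares for naturally born animals (n = 5 each), with replicate numbers. In each Igh stretch the 2 groups overlap, with naturally born replicate 3 between the extremes in all 4. The other animals fall into high and low values, but ICSI-derived replicates 1 and 2 also lie between (-0.21 each) in the stretch from 115345160. In the Tcra/Tcrd stretch all 10 animals are above 0 (0.31 to 0.56).

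Igk, the light chain locus with the widest interval, was close to the rest of the genome. The median span of its 155 probes was 0.34, against 0.33 over all autosomal probes, and its widest window, chr6:67416933-67451843, spanned 0.29. Its 3 widest probes (chr6:69297101-69297160, chr6:69326915-69326974 and chr6:69974825-69974884, spans 1.44, 1.40 and 1.34) were each not well above background on 1 to 3 arrays, and their values have no clear order by animal. ICSI-derived replicate 5 was one of those arrays at all 3. Naturally born replicate 5 had the highest Igk mean, 0.09, where the other 9 animals lay between -0.01 and 0.03. Over the 10097 chromosome 6 probes outside Igk it also had 0.07, where the others lay between -0.0037 and 0.01.

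Toward the high end of Igk all animals differed from the pool in the same direction. Over the window chr6:70441158-70482914 they had 0.40, 0.39, 0.41, 0.43 and 0.39 in the ICSI-derived and 0.31, 0.37, 0.36, 0.33 and 0.48 in the naturally born group. The probe chr6:70467507-70467559 had 0.79, 0.58, 0.69, 0.85 and 0.73 in the ICSI-derived and 0.65, 0.77, 0.65, 0.61 and 0.74 in the naturally born animals. Farther toward that end, the probe chr6:70536897-70536954 was below 0 in all animals (-0.90 to -0.43). The groups overlapped at both probes, and the window is named for the 2 high probes it holds.

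Over all members, 3 of 491 probes were at 0.5 or above in every animal, against 0.0359% of all autosomal probes. None was at -0.5 or below in every animal, against 0.0248% of all autosomal probes. The Igk probe chr6:70467507-70467559 is 1 of the 3, and the other 2 lie in Tcra/Tcrd. They are chr14:53759070-53759129 and chr14:53992280-53992339 (0.52 to 0.79).

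Tcra/Tcrd, where the delta segments lie within the alpha locus, had 2 features. The first was a stretch with a mean above the pool in every animal, over 7 probes at chr14:53759070-54181322. Its mean was 0.48, 0.36, 0.31, 0.51 and 0.39 in the ICSI-derived and 0.48, 0.56, 0.55, 0.54 and 0.52 in the naturally born animals, and it follows a gap of 373.4 kb without probes. The stretch was not even, as the window chr14:53966207-54172134 inside it had a mean of only 0.12 to 0.33 over the animals. A probe of the stretch, chr14:54156327-54156383, was below 0 in ICSI-derived replicates 1, 4 and 5 (-0.20, -0.07 and -0.16). The segmentation called the stretch in naturally born replicates 1, 2 and 3 and, with 8 probes, in replicate 5. It called no Tcra/Tcrd stretch in the ICSI-derived animals. The first probe of the stretch, chr14:53759070-53759129, had 1.79, 0.68, 0.62, 1.72 and 1.41 in the ICSI-derived and 1.46, 1.53, 1.62, 1.59 and 1.38 in the naturally born animals. ICSI-derived replicates 2 and 3 were the low ones at this probe, and the remaining 8 animals did not separate by group.

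The second was a set of probes scattered over the locus at which ICSI-derived replicates 1, 4 and 5 stood apart. At chr14:54291227-54291286 they had -1.01, -0.96 and -1.03, ICSI-derived replicates 2 and 3 had 0.04 and -0.11, and the naturally born animals had 0.08, -0.13, -0.02, -0.04 and 0.03. At chr14:54220927-54220986 they had -0.91, -0.84 and -1.08, ICSI-derived replicates 2 and 3 had -0.24 and -0.27, and the naturally born animals had -0.18, -0.28, -0.24, -0.17 and -0.23. At both probes ICSI-derived replicates 2 and 3 were level with the naturally born animals, so the groups overlapped although 3 of 5 ICSI-derived animals lay far below. The differences were -0.60 (SE 0.18) and -0.44 (SE 0.13), neither past limma's test.

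Other probes were higher in these 3 animals. At chr14:54320774-54320833 the values were 0.41, 0.20, -0.07, 0.65 and 0.61 in the ICSI-derived and -0.08, -0.27, -0.15, 0.20 and 0.00 in the naturally born animals. ICSI-derived replicate 2 and naturally born replicate 4 were level there, and ICSI-derived replicate 3 was among the naturally born values. The difference was 0.42 (adjusted p = 0.60 by limma), and without ICSI-derived replicate 3 it was 0.50 (SE 0.07, adjusted p = 0.035 by limma), where 0.0291% of all autosomal probes were called higher. The locus's widest probe, chr14:54278607-54278666 (1.71, 1.35 and 1.27 in these 3 animals and 0.46 to 0.96 in the others), was not well above background on 9 arrays.

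ICSI-derived replicates 1, 4 and 5 were all above or all below the other 7 animals in 6 of 23 Tcra/Tcrd windows (26.1%, against 1.97% of all autosomal windows). By probe they were so at 26 of 115 (22.6%, against 2.38% of all autosomal probes). At 17 of the 26 they were the highest and at 9 the lowest. The widest of these windows, chr14:54291227-54391070, had -0.23, 0.11, 0.03, -0.23 and -0.29 in the ICSI-derived and 0.11, 0.06, 0.10, 0.16 and 0.10 in the naturally born animals, a difference of -0.23 (SE 0.06) that did not pass limma's test. The window chr14:54593322-54624865 went the other way, with 0.42, 0.07, 0.17, 0.45 and 0.37 in the ICSI-derived and 0.12, 0.23, 0.21, 0.10 and 0.18 in the naturally born. These 3 animals were picked from the values, and ICSI-derived replicates 1 and 4 were also the noisiest arrays, while replicate 5 was not; the part of the noise was not tested. They lay on slides 1, 2 and 3.

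**Figure D5:**
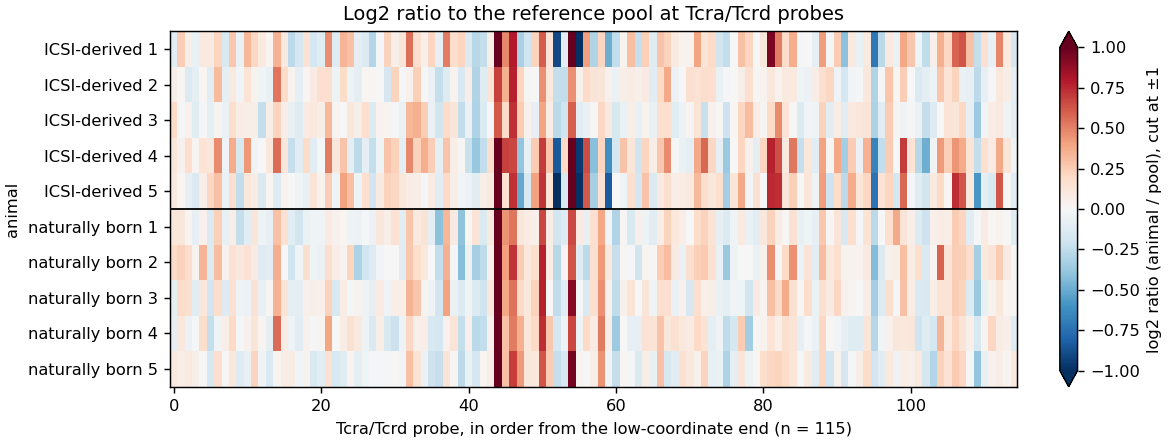
Log2 ratio to the reference pool at the 115 Tcra/Tcrd probes (horizontal axis, in order from the low-coordinate end) in each animal (vertical axis, replicate numbers), in colour, with red above and blue below 0 and the scale cut at 1 in either direction. The red columns that run through all 10 animals include the first probe of the stretch whose mean is above the pool. Not every probe of that stretch is red in all animals, as chr14:54156327-54156383 ranges from -0.20 to 0.12. The probe chr14:54278607-54278666 (0.46 to 1.71), outside that stretch, is also among them. The columns in which ICSI-derived replicates 1, 4 and 5 alone are dark are probes at which these 3 animals stood apart.

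The small loci held little variation. At Igl the median span was 0.27, its widest window spanned 0.24 (chr16:19201112-19258574), and its widest probe, chr16:19248909-19248968, had 0.56 in ICSI-derived replicate 2 and 0.21 in replicate 5, with the other 8 animals between -0.24 and 0.02. At Tcrg the median span was 0.34 and the widest window, chr13:19286254-19388879, spanned 0.28. Its probe chr13:19329366-19329425 was the only Tcrg probe with a span of 1 or more. It had -0.51, 0.41, 0.45, -0.37 and 0.54 in the ICSI-derived and 0.56, 0.44, 0.09, -0.19 and 0.55 in the naturally born animals. Naturally born replicate 4 and ICSI-derived replicates 1 and 4 were low there, 6 animals were high, and naturally born replicate 3 lay between them again.

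The intervals' ends were set by position, and at some of them the nearest probes inside and outside differed in level. The Igh probe just inside the low end (start 114403600) ranged from -0.63 to -0.05 over the animals and the one just outside (start 114396546) from 0.02 to 0.36. At the high end the inside probe (start 117293546) ranged from -0.86 to 0.37 and the outside one (start 117307501) from -0.31 to 0.07. Such ranges did not overlap at the low end of Igh, the high end of Igk and both ends of Tcrg, and overlapped at the other ends. Each comparison is of 1 probe with 1 neighbour. How often neighbouring probes differ so elsewhere was not counted, so these ranges do not place a border of a locus.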

How the data were processed

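DNA from 10 animals was analysed, 1 array each, 5 per group. Each file is one Agilent array's scanner output (Feature Extraction 10.7.3.1, per the file headers). The intensity values used are the processed red and green signals, background-subtracted and dye-normalized before deposit, per the file headers. As an alternative, log10 ratios of red over green were read from the deposited value table. The build is mm9, per the file headers of 6 arrays, and the other 4 name none. Partek 6.5 is listed in the submitters' processing notes, with no role given.

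Control spots were left out and spots of one probe averaged. The log2 ratio of red (animal) over green (pool) was centred on each array's autosomal median, with no loess. Windows are means of 5 consecutive probes, and a member window holds at least 3 member probes. limma 3.58.1 (R 4.3.3) fitted group and sex to all autosomal probes and, separately, windows, with Benjamini-Hochberg adjustment at 0.05. Replicates are separate animals. Segmentation was by optimal partitioning (penalty factor 3, at least 5 probes, mean at least 0.25). A single probe more than 4 robust SD from its 10 neighbours was drawn in first. The fits and the segmentation were tested on simulated data.

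Named in each locus were the 3 probes and the window with the widest span, up to 3 probes per direction farthest from 0 in all animals (not all are printed), called stretches of 10 or more probes, and probes that passed the test. Other probes, windows and stretches were named after their values were seen. The members and lists were chosen with earlier results of these data known. Every data column used belongs to an array of the study. Sequences of probes or regions were not used here. The alternatives comprised other centring, background correction, filters, blocks, left-out animals, slides and thresholds.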

Additional observations from a re-analysis of the deposited data

Results flagged for a closer look

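At the Tcrg probe chr13:19380287-19380346, ICSI-derived replicate 4 had -0.51, with the remaining animals of its group at -0.18 to -0.07. The gap was 0.76 of the group's range, above Dixon's limit for 5 samples. The naturally born animals lay between -0.27 and -0.01 at this probe. Of 68 sets of 5 values tested in this way, 1 passed the limit, and chance gives about 1 in 20 for sets not picked by their values. This probe was named for its wide span and for lying below 0 in every animal, so that rate does not apply to it as it stands. ICSI-derived replicate 4 was the noisiest array.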

How the results depend on the processing

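Member calls between the groups were 0 under most alternatives. Leaving out 1 animal gave 0 to 1 member probes higher and 0 to 1 lower. The higher one, in Tcra/Tcrd, appeared without ICSI-derived replicate 3, where 0.0291% of all autosomal probes were higher. The lower one, in Igh (chr12:115388019-115388078, -0.51, adjusted p = 0.037 by limma), appeared without naturally born replicate 4, where 0.0031% were lower. Within slide 1, 1 Igh window was lower, as were 0.0062% of all windows. The cause of these calls was not tested. With the replicate number as a block there were 0 member calls in either direction, with 48 member probes (and 3.24% of all autosomal probes) at an unadjusted p under 0.05. Over all autosomal probes same-numbered animals did not deviate together (r of -0.28 to 0.15, where the highest r with another number was 0.12 to 0.39). They share a slide and a labelled sex. A low r over all probes cannot show whether the numbers pair the animals in another way. The Tcrg mean difference was -0.055 within slide 1 and 0.015 within slide 2. Over 19 alternatives per locus, the mean difference turned sign in 4 for Igh (-0.04 to 0.04), 3 for Igk, 1 for Tcra/Tcrd, 1 for Tcrg and 0 for Igl, and 93 values moved by less than the spread between animals (2 did not). With a span of 0.7 as the limit, 91 member probes passed, 72 of them in Igh, where 4.16% of all autosomal probes did. With 0.3 in place of 0.5, 8 member probes were on one side of 0 in all animals, as were 0.325% of all autosomal probes. A breakpoint penalty of 6 left 0.183% of member probes in called stretches. Without the 3 noisiest arrays, chosen after seeing the data, 33 members, 27 of them in Igh, spanned 1 or more, as did 0.782% of all autosomal probes. The order of the 4 animals held in 16 to 21 Igh windows under 5 alternatives, also chosen after seeing the data. Depth of signal is limited at 7 member probes (1.43%, against 0.276% of all autosomal probes) that were not well above background on every array. With such probes left out, 34 members, 30 of them in Igh, spanned 1 or more, in place of 40 and 32.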
